A study of Mus musculus with 12 samples.

Results

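The report concerns 9 genes of purine nucleoside uptake and breakdown, Ada, Nt5e, Slc28a2, Slc28a1, Slc29a1, Pnp, Xdh, Adk and Enpp3, out of 55421 genes in the deposited table. They were picked by name, with their values in these libraries already known, so their levels and differences are given as a description with no p-value. All 9 had at least 1 TPM (transcript abundance corrected for length and brought to a common total across libraries) in at least 3 libraries, as did 14510 genes in all. The libraries were made from total RNA of intestinal epithelial cells of the mouse jejunum. The 4 groups of 3 libraries each were control (Ctrl) at day 1, Fzd5 knockout (Fzd5KO) at day 1, Ctrl at day 3 and Fzd5KO at day 3. Fzd5 encodes a Frizzled receptor for Wnt ligands. The labels do not give the strain, the age, the event from which the days were counted, how Fzd5 was deleted or in which cells, or any allele or agent carried by the controls. They also do not say whether replicates came from separate mice, so a p-value here measures only the spread between libraries, which may be technical.

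Purine nucleosides reach enterocytes from food, from shed cells and from nucleotides released by living cells. Outside the cell, ectonucleotidases remove phosphates step by step until CD73, the product of Nt5e, turns AMP into adenosine. Nucleosides are then carried across the membrane, and inside the cell adenosine is either rephosphorylated by adenosine kinase (Adk) or deaminated to inosine by adenosine deaminase (Ada). Purine nucleoside phosphorylase (Pnp) splits inosine and guanosine to free bases, and xanthine dehydrogenase (Xdh) oxidises hypoxanthine and xanthine to urate. In the mouse small intestine, Ada, Nt5e and Slc28a2 are known as genes of enterocytes near the villus tip. The label covers the set only in part, since the carrier encoded by Slc28a1 prefers pyrimidine nucleosides and Adk salvages adenosine instead of breaking it down.

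Promoter sequence is shown for 3 of the members that stood higher in Fzd5KO on both days without overlap. For Nt5e, which also did so, all 250 bases before the start lie in annotated exons, so no stretch is printed. The sequences run 5′ to 3′ upstream of the transcription start and were taken from RefSeq on GRCm38.p6, the assembly of mm10. The table held 8 of the 9 members, and Xdh was the member without an entry. The stretches lie at chr2:163750240-163750489 on the minus strand for Ada, chr2:122426185-122426434 on the plus strand for Slc28a2, and chr10:24836226-24836445 on the minus strand for Enpp3. Capitals mark the 1 match to a searched motif in each stretch, which is a GC box in Ada, a CDX-type motif read on the other strand in Slc28a2, and a TATA-type motif read on the other strand in Enpp3.
Ada: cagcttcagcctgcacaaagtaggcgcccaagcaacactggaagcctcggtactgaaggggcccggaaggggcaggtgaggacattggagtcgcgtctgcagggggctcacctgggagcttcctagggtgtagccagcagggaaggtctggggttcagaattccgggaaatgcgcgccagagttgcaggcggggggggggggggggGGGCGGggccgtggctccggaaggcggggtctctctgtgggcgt
Slc28a2: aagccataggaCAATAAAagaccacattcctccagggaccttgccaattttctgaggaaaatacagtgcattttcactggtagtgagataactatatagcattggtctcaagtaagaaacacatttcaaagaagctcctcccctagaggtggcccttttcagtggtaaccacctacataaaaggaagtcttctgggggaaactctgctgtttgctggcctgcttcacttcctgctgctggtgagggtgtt
Enpp3: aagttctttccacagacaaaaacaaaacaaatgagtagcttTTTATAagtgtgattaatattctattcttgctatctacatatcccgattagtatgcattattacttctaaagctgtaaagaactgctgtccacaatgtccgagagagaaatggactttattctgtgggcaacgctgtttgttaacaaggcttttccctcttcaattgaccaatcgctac

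These 3 promoters shared no motif among the 10 that were searched on both strands of the 250 bases before each start. The GC box (GGGCGG), present in 32.7% of 32851 promoter windows, was found in 10 of 16 member windows, belonging to 6 genes (Ada, Adk, Nt5e, Pnp, Slc28a1 and Slc29a1). Of the 16 windows, 8 belonged to Slc29a1 and 2 to Adk, so they are not separate genes and nothing is read from their share. The CDX motif (TTTATNG, 9.81% of windows) was found in Slc28a2, the GATA motif (GATAAG, 6.55%) in Pnp, the E-box (CACGTG, 6.02%) in Slc29a1 and the TATA motif (TATAAA, 12.4%) in Enpp3. The CDX motif and the reversed TATA motif can overlap in their letters. No member window held the TCF/LEF motif of Wnt-responsive genes (CTTTGAT, 3.21%), the HNF4 motif (CAAAGTCCA, 0.384%), the HNF1 motif (0.00913%), the AP-1 motif (TGANTCA, 6.75%) or the CRE (TGACGTCA, 1.55%). A match is a description of letters and not a bound site.

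Fzd5 itself was lower in the Fzd5KO libraries but still present. It stood at 46.6 ± 2.94 TPM (SD, n = 3) in the day 1 controls against 32.7 ± 0.694 in the knockout libraries, 70.2% of Ctrl. At day 3 it stood at 64.8 ± 3.95 against 38.6 ± 0.969 TPM, 59.5% of Ctrl. The fitted difference was -0.50 ± 0.055 (SE) on the log2(TPM + 1) scale at day 1 (limma, Benjamini-Hochberg adjusted p = 0.000151) and -0.73 ± 0.055 at day 3 (adjusted p = 4.42e-07). The deleted exons are not given, so these values for the whole gene check the labels only in direction. All 8 epithelial identity markers were detected in the tested set, led by the keratins Krt8 and Krt19. Between 21506 and 24467 genes were above 0 per library, and sequencing depth is unknown because TPM does not keep it.

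The enzymes that work outside the cell, Nt5e and Enpp3, stood higher in every Fzd5KO library than in any Ctrl library of the same day. In a bulk sample, fewer cells of a type and less RNA per cell cannot be told apart, and this holds for each level that follows. Nt5e (ENSMUSG00000032420, chr9:88327197-88372092 in mm10, plus strand) was measured at day 1 at 16.11, 16.88 and 16.83 TPM in the Ctrl libraries against 37.59, 38.39 and 37.28 TPM in those of Fzd5KO. At day 3 Nt5e was at 12.03, 12.88 and 11.67 TPM in Ctrl and at 50.77, 52.87 and 51.61 TPM in Fzd5KO. The groups did not overlap on either day, and the 3 Ctrl libraries of day 3 were the lowest of the 12. The fold of the mean TPM was 2.27 at day 1 and 4.24 at day 3, with fitted log2 differences of 1.14 ± 0.044 (SE) and 2.0 ± 0.044.

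Enpp3 encodes an ectonucleotide pyrophosphatase that releases nucleoside monophosphates from extracellular nucleotides, the step before CD73 (ENSMUSG00000019989, chr10:24772406-24842823, minus strand). Its Ctrl libraries were at 272.49, 289.3 and 261.59 TPM and its Fzd5KO libraries at 433.94, 437.96 and 423.62 TPM at day 1. At day 3 the Ctrl libraries were at 178.73, 179.59 and 173.48 TPM and the Fzd5KO libraries at 851.21, 877.94 and 849.34 TPM. The fold of the mean TPM was thus 1.57 at day 1 and 4.85 at day 3, with fitted log2 differences of 0.65 ± 0.037 and 2.27 ± 0.037. Enpp3 was the member with the highest mean TPM in both Fzd5KO groups. Enpp3 is also known as a surface marker of mast cells and basophils. Of 11 mast cell and basophil markers, 3 were tested, of which Mcpt1 and Mcpt2 rose and Kit fell on both days, with a median log2 difference of 0.84 at day 1 and 0.85 at day 3. Under quantile normalization or median-of-ratios scaling 0 fell at day 1. Among the markers that were not tested, Cpa3 and Fcer1a had means over the 12 libraries of 0.295 and 0.178 TPM, and the rest are not given. None of the 11 was at 0 in all libraries. Their summed level at day 1 ranged from 7.75 to 9.39 TPM for Ctrl and from 12.4 to 12.7 TPM for Fzd5KO, and at day 3 from 19.6 to 22.8 and from 30.4 to 36.1 TPM. The part of these cells in the level of Enpp3 was not tested.

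**Figure D1:**
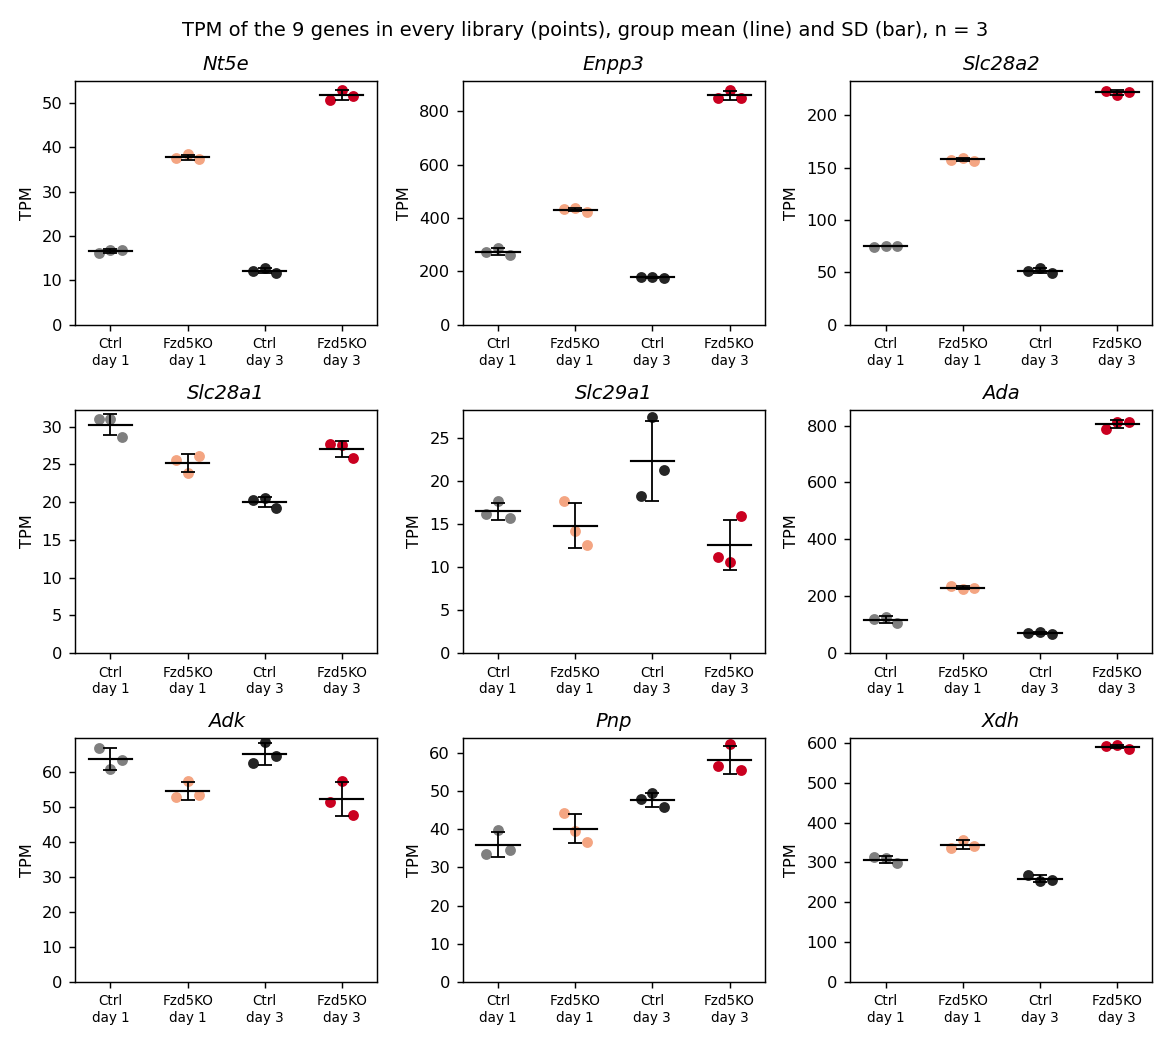
TPM (vertical axis, from 0) of each of the 9 genes by group, with a point per library, a line at the mean and a bar of 1 SD (n = 3). Ada, Nt5e, Slc28a2, Enpp3 and Xdh have Fzd5KO points above all Ctrl points of the same day on both days. Adk has them below on both days, and Slc29a1 at day 3.

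The 3 nucleoside carriers did not move alike. Slc28a2 encodes CNT2, a sodium-coupled carrier that concentrates purine nucleosides and uridine (ENSMUSG00000027219, chr2:122426477-122461137, plus strand). At day 1 the Ctrl libraries held 74.65, 75.47 and 75.16 TPM and the Fzd5KO libraries 156.97, 159.49 and 156.6 TPM. At day 3 they held 51.22, 53.99 and 49.32 TPM against 223.45, 219.29 and 222.16 TPM. Replicates lay close together and the genotypes stood apart on both days, 2.10-fold at day 1 and 4.30-fold at day 3 by the mean TPM. The fitted log2 differences were 1.06 ± 0.034 and 2.08 ± 0.034. A near copy, Gm14085 (Slc28a2b), shares 35.4% of the 50-base stretches of Slc28a2, and it was at 0.41 TPM or less in every library.

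Slc28a1 encodes CNT1, the related carrier with a preference for pyrimidine nucleosides (ENSMUSG00000025726, chr7:81114799-81170416, plus strand). On day 1 its Ctrl libraries held 31.05, 31.05 and 28.63 TPM, those of Fzd5KO 25.52, 23.82 and 26.12 TPM. At day 3 it was at 20.28, 20.51 and 19.24 TPM in Ctrl and 27.74, 27.51 and 25.82 TPM in Fzd5KO. Slc28a1 was thus lower in Fzd5KO at day 1 (log2 -0.26 ± 0.053) and higher at day 3 (0.42 ± 0.053, 1.35-fold), with no overlap on either day. The day 1 value did not pass the threshold of the fit under any of the 3 other scalings of the libraries.

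Slc29a1 encodes ENT1, a facilitative carrier that moves purine and pyrimidine nucleosides down their gradient (ENSMUSG00000023942, chr17:45585200-45599606, minus strand). Its day 1 libraries were at 16.17, 17.64 and 15.76 TPM in Ctrl and 17.68, 14.19 and 12.6 TPM in Fzd5KO, and the groups overlapped. At day 3 Slc29a1 was at 18.25, 27.44 and 21.32 TPM in Ctrl and 11.18, 10.65 and 15.94 TPM in Fzd5KO, with every Fzd5KO library below every Ctrl library. The mean at day 3 was 12.6 ± 2.91 TPM (SD, n = 3) in Fzd5KO, 56.4% of the 22.3 ± 4.68 TPM in Ctrl. Replicates of Slc29a1 were the most scattered of the 9 genes, and its fitted log2 differences were -0.16 ± 0.17 at day 1 and -0.78 ± 0.17 at day 3.

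Among the enzymes inside the cell, Ada differed most. Ada (ENSMUSG00000017697, chr2:163726584-163750239, minus strand) had 121.15, 127.4 and 105.92 TPM in the day 1 Ctrl libraries and 234.86, 226.08 and 229.44 TPM in the day 1 Fzd5KO libraries. In the later libraries, those of day 3, it was at 72.49, 74.03 and 66.29 TPM in Ctrl and 788.0, 813.78 and 811.43 TPM in Fzd5KO. No library of one genotype reached those of the other, and the 3 Fzd5KO libraries of day 3 stood far above the remaining 9. The fold of the mean was 1.95 at day 1 and 11.3 at day 3, with fitted log2 differences of 0.96 ± 0.062 and 3.49 ± 0.062. The day 3 difference of Ada held rank 5 from the top among 14510 tested genes, and its day 1 difference rank 62.

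Xdh (ENSMUSG00000024066, chr17:73883895-73950196, minus strand), the urate-forming enzyme, differed little at day 1 and more at day 3. Day 1 values were 312.99, 310.85 and 297.27 TPM for Ctrl against 335.88, 357.43 and 340.76 TPM for Fzd5KO. Day 3 values were 268.42, 253.78 and 255.93 TPM for Ctrl against 592.49, 594.46 and 585.65 TPM for Fzd5KO. The groups did not overlap on either day, with folds of 1.12 and 2.28 and fitted log2 differences of 0.17 ± 0.035 and 1.19 ± 0.035.

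Pnp (ENSMUSG00000115338, chr14:50931082-50965237, plus strand), which splits inosine and guanosine, had day 1 values of 33.61, 39.76 and 34.47 TPM for Ctrl and 44.26, 39.6 and 36.68 TPM for Fzd5KO, which overlapped. At day 3 Pnp was at 47.84, 49.59 and 45.74 TPM in Ctrl and 56.73, 62.49 and 55.56 TPM in Fzd5KO. Fitted log2 differences were 0.16 ± 0.079 at day 1 and 0.28 ± 0.079 at day 3, where the fold was 1.22 without overlap. The day 1 difference passed the threshold of the fit under all 3 other scalings, and the day 3 difference missed it under quantile normalization. The level of Pnp is uncertain, because 11.0% of its 50-base stretches occur in the neighbouring copy Pnp2 and 16.8% in the overlapping gene Gm49342. Pnp2 moved in the same direction on both days (limma, Benjamini-Hochberg adjusted p = 0.0169 at day 1 and 0.000264 at day 3). The 3 genes summed to 142.6 ± 4.38 TPM (SD, n = 3) for Ctrl against 162 ± 1.65 TPM for Fzd5KO on day 1. On day 3 they summed to 185 ± 4.52 against 231 ± 6.14 TPM.

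Adk (ENSMUSG00000039197, chr14:21052574-21448569, plus strand) was the one enzyme of the set that was lower in Fzd5KO on both days. Day 1 values were 66.9, 60.77 and 63.39 TPM for Ctrl against 52.81, 57.32 and 53.45 TPM for Fzd5KO. At day 3 Adk was at 62.44, 68.62 and 64.42 TPM in Ctrl and 51.34, 57.36 and 47.68 TPM in Fzd5KO, which is 80.0% of Ctrl by the mean. The groups did not overlap, but the gaps were small, and the fitted log2 differences were -0.22 ± 0.067 and -0.32 ± 0.067. The day 1 difference of Adk missed the threshold under 9 of 23 alternatives and the day 3 difference under 1, median-of-ratios scaling.

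**Figure D2:**
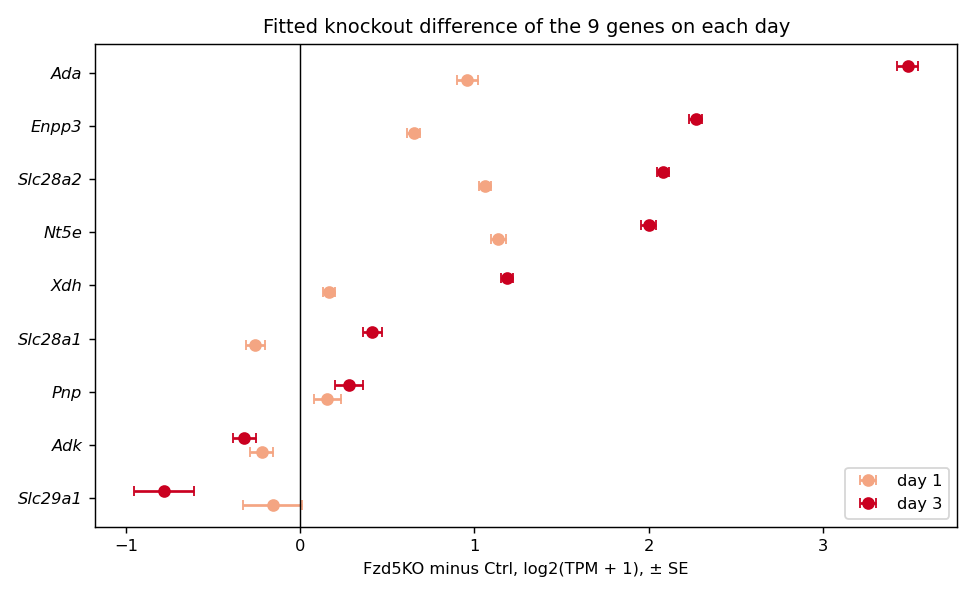
Fitted log2 difference Fzd5KO minus Ctrl for the 9 genes at day 1 and at day 3, with bars of 1 SE and a vertical line at 0. Ada is farthest to the right at day 3 (3.49), and Slc29a1 (-0.78) and Adk (-0.32) lie left of 0.

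At day 1 the fit across all genes called 5 members higher in Fzd5KO (Nt5e, Enpp3, Slc28a2, Ada and Xdh) and 2 lower (Slc28a1 and Adk), beside 2.13% of all tested genes called higher and 22.8% called lower, 25.0% in all. At day 3 it called 7 members higher and 2 lower, beside 24.3% and 38.5%, 62.8% in all. For the difference between the days it called 6 higher and 0 lower, beside 25.3% and 19.1%, 44.3% in all. The members were chosen with these values known, so nothing is read from the counts. The groups did not overlap for 5 members higher and 2 lower at day 1 (4.52% and 38.9% of tested genes) and for 7 and 2 at day 3 (25.7% and 40.8%). The median difference of the members was 0.17 at day 1 and 1.19 at day 3, beside -0.14 over all tested genes on each day. The shares over all genes depend on scaling. At day 1, 309 genes were called higher and 3313 lower in the deposited TPM, but 851 and 920 after quantile normalization, 1277 and 911 under median-of-ratios scaling and 678 and 1254 with rescaled TPM. At day 3 the counts were 3529 and 5584, then 3984 and 4402, 4567 and 4248, and 3033 and 5991 in the same order. For the difference between the days they were 3665 and 2769, then 3132 and 3225, 3667 and 2973, and 2669 and 4278. Quantile normalization, median-of-ratios scaling and rescaled TPM moved the all-gene median by 0.14, 0.14 and 0.089 at day 1 and by 0.11, 0.12 and -0.069 at day 3.

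Within the genotypes, the levels of several members differed between the days in opposite directions. From day 1 to day 3, Ada went from 118 ± 11.0 to 70.9 ± 4.10 TPM (SD, n = 3) in Ctrl and from 230.1 ± 4.43 to 804 ± 14.3 TPM in Fzd5KO, 3.50 times its day 1 level. Enpp3 differed between the days by log2 -0.63 in Ctrl and 0.99 in Fzd5KO. The corresponding values were -0.54 and 0.49 for Slc28a2, -0.42 and 0.44 for Nt5e, and -0.24 and 0.78 for Xdh. For these 5 genes every Ctrl library of day 3 lay below every Ctrl library of day 1, and every Fzd5KO library of day 3 lay above every one of day 1. Slc28a1 was lower by -0.57 in Ctrl, and its Fzd5KO value of 0.10 turned in sign under all 3 other scalings. Over all members, the fit called 1 higher and 6 lower in Ctrl, beside 25.0% and 11.0% of tested genes, 36.1% in all. In Fzd5KO it called 6 higher and 0 lower, beside 34.4% and 10.5%, 44.9% in all. The Fzd5KO counts were 6 and 1 after quantile normalization, 6 and 1 under median-of-ratios scaling and 6 and 2 with rescaled TPM. The days did not overlap for 2 members higher (Pnp and Slc29a1) and 6 lower in Ctrl, beside 33.0% and 13.7%, and for 6 higher and 0 lower in Fzd5KO, beside 39.6% and 14.5%. Nothing is read from these counts either. The all-gene split again depended on scaling, since in Ctrl 3633 genes were called higher and 1603 lower, but 2226 and 2295 after quantile normalization, 1774 and 2552 under median-of-ratios scaling and 3133 and 1794 with rescaled TPM. In Fzd5KO the split was 4985 and 1525, then 3040 and 2855, 3533 and 2792, and 2793 and 3484. Each library enters both a knockout comparison and a time comparison, so these values are not independent of those above.

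The levels, which TPM puts on a per-length scale, also changed in order. In Ctrl at day 1 the order ran Xdh, Enpp3, Ada, Slc28a2, Adk, Pnp, Slc28a1, then Nt5e and Slc29a1, and the last pair overlapped. In Ctrl at day 3 Xdh and Enpp3 still led, and Ada overlapped with Adk, Slc28a2 with Pnp, and Slc29a1 with Slc28a1. In Fzd5KO at day 1 Enpp3 led, followed by Xdh, Ada, Slc28a2 and Adk, and Pnp overlapped with Nt5e. In Fzd5KO at day 3 Enpp3 (859 ± 16.0 TPM) and Ada (804 ± 14.3 TPM) stood above Xdh (591 ± 4.62 TPM) and Slc28a2 (222 ± 2.13 TPM). Adk overlapped there with both Pnp and Nt5e, which did not overlap with each other, and Slc28a1 and Slc29a1 were lowest.

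Ratios within a library, which multiplying a library by a constant cannot change, separated the genotypes for the rival users of adenosine. The ratio of Ada to Adk, deamination against rephosphorylation in terms of transcripts, was 1.86 ± 0.217 (SD, n = 3) in Ctrl and 4.23 ± 0.258 in Fzd5KO at day 1. At day 3 it was 1.09 ± 0.067 in Ctrl and 15.5 ± 1.42 in Fzd5KO. The ratio of the purine carrier Slc28a2 to the pyrimidine carrier Slc28a1 was 2.49 ± 0.121 and 6.28 ± 0.368 at day 1, and 2.57 ± 0.054 and 8.21 ± 0.344 at day 3. It was thus much alike in Ctrl on both days and higher in every Fzd5KO library. The ratio of Nt5e to Slc28a2, the adenosine-forming enzyme and the adenosine carrier, stayed between 0.216 and 0.241 over all 12 libraries, while Nt5e alone ranged from 11.67 to 52.87 TPM. These were also the pair of members whose log2 profiles lay closest, with a root mean square difference of 0.050 after centring each gene over the 12 libraries.

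**Figure D3:**
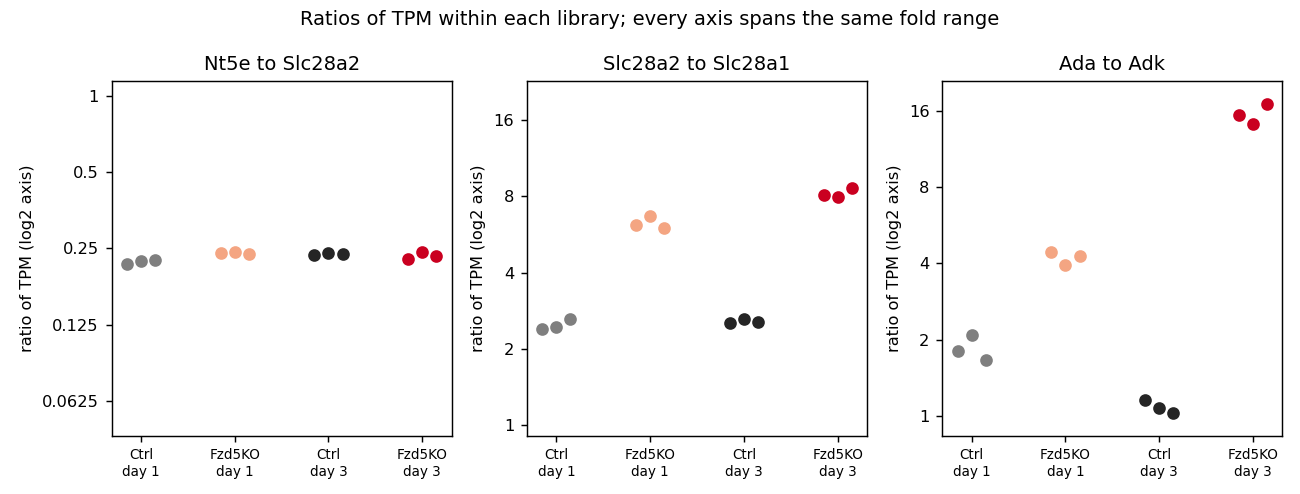
Ratios of TPM between 3 pairs of members (vertical log2 axes that span the same fold) in each of the 12 libraries, with a point per library. Ada to Adk has a mean of 15.5 in Fzd5KO at day 3, and Nt5e to Slc28a2 stays within 0.216 to 0.241.

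Outside the set, profiles over the 12 libraries were compared by the same measure among 8928 tested genes with a mean of at least 5 TPM. Small RNAs and genes with Gm or Rik names were left out, so a nearer gene among them would not be seen. Nearest to Ada were Sprr2a2 (0.28), Sprr2a3 (0.43) and Sgk2 (0.49). Sprr2a2 and Sprr2a3 encode small proline-rich proteins of a multigene family whose reads may be split between copies, so their levels are uncertain. Nearest to Nt5e were Ly6m (0.16), Acadl (0.21) and the pseudogene Tmem181c-ps (0.30). The same 3 genes were nearest to Slc28a2, at 0.14, 0.21 and 0.30. Acadl encodes a mitochondrial long-chain acyl-CoA dehydrogenase. These distances are descriptions over libraries that share day and genotype, with no test.

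Markers of position along the crypt-villus axis also differed between the genotypes. Of 8 villus tip markers, 4 rose and 1 fell in Fzd5KO at day 1, and 7 rose and 1 fell at day 3 (limma, adjusted over all tested genes). Of all tested genes, 2.13% rose and 22.8% fell at day 1, and 24.3% rose and 38.5% fell at day 3. These shares stand beside every marker count of the report. The apolipoprotein gene Apoa4 rose by 0.57 and 1.31 on the log2 scale and the keratin gene Krt20 by 0.14 and 1.28. Of 8 villus middle markers, 2 rose and 6 fell at day 1 and 8 rose at day 3, among them sucrase-isomaltase, Sis, at -0.43 and 1.48. Their summed level at day 1 was nevertheless higher in Fzd5KO, at 13814 to 14173 TPM against 12387 to 12837 TPM in Ctrl. At day 3 the sums were 20134 to 20783 TPM in Fzd5KO against 10084 to 10571 TPM in Ctrl. Of 8 villus base markers, 3 rose and 2 fell at day 1, and 5 rose and 1 fell at day 3. All 8 crypt base markers fell on both days, Olfm4 by log2 values of -2.61 and -4.13. Under the 3 other scalings 8 crypt base markers still fell on both days, while 5 or 6 villus tip markers rose and 0 fell at day 1. The villus middle markers had 1 rising and 3 falling at day 1 after quantile normalization, 2 and 4 under median-of-ratios scaling and 1 and 4 with rescaled TPM. These markers moved beside the member differences, and their part in those differences was not tested.

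**Figure D4:**
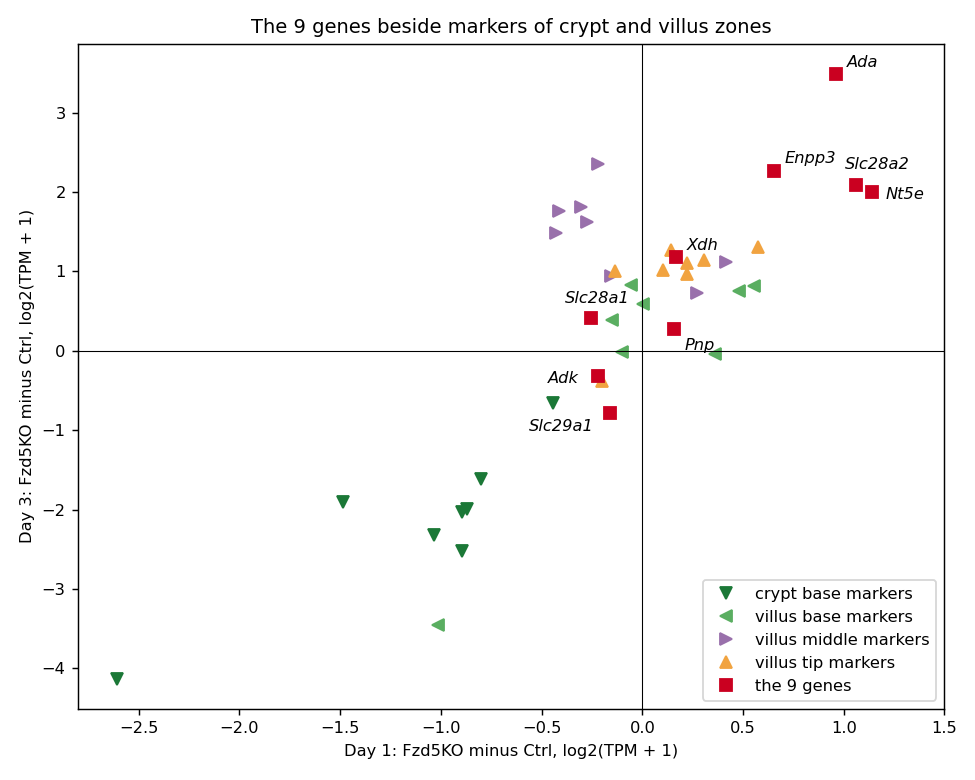
Log2 difference Fzd5KO minus Ctrl at day 1 (horizontal axis) and day 3 (vertical axis) for the 9 genes and for the villus tip, middle and base and crypt base markers. The crypt base markers lie at negative values on both axes, and Ada, Nt5e, Slc28a2, Enpp3, Xdh and Pnp at positive values on both.

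Markers of other cell types also differed. Of 10 tested T cell markers, 4 fell in Fzd5KO at day 1 and 10 rose at day 3. The 12 T cell markers, none at 0 throughout, summed on day 1 to 209.7 to 234.3 TPM for Ctrl against 136 to 161 TPM for Fzd5KO. On day 3 the sums were 49.3 to 55.2 TPM against 196 to 221 TPM, led by the granzyme gene Gzma. B and plasma cell markers summed to 26.0 to 33.1 and 17.2 to 19.6 TPM at day 1, and to 25.9 to 34.1 and 104 to 131 TPM at day 3. Myeloid markers summed to 25.0 to 28.4 and 19.4 to 21.3 TPM at day 1, and to 16.6 to 22.3 and 43.8 to 48.0 TPM at day 3. Of 8 fibroblast markers 5 were tested, of which 2 fell at day 1 and 0 at day 3. Of 8 endothelial markers the 1 tested rose at day 3. Of 6 erythroid markers 5 were tested, of which 3 fell at day 1 and 5 at day 3. Under each of the 3 other scalings 3 T cell, 1 fibroblast and 2 erythroid markers fell at day 1. With rescaled TPM, 12 T cell and 6 fibroblast markers were tested. Under quantile normalization 2 fibroblast markers rose at day 3. Lymphoid and myeloid sums stood lower in Fzd5KO at day 1 and higher at day 3. T cells are known to express Ada and Nt5e, and the part of these cells in the member differences was not tested on either day.

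Pathway lists of genes other than the 9 members were counted to place them. The shares of all tested genes that were called stand beside the counts over all lists, and apply equally to those of single lists. In all 7 lists, 83 of 109 genes were tested. At day 1, 4 rose and 23 fell, beside 2.13% and 22.8% of all tested genes. At day 3, 28 rose and 35 fell, beside 24.3% and 38.5%. The split at day 1 depended on scaling: 7 rose and 3 fell under quantile normalization, 16 and 3 under median-of-ratios scaling, and 6 and 7 after rescaling without the most abundant RNAs. Single lists also depended on it at day 1. Under median-of-ratios scaling, extracellular breakdown had 3 rising and 1 falling, transport 2 and 0, intracellular breakdown 3 and 0, salvage 4 and 0, and pyrimidine handling 2 and 1. Under quantile normalization the counts were 1 and 1, 2 and 0, 1 and 0, 2 and 0, and 1 and 1, and with rescaled TPM 1 and 1, 2 and 1, 1 and 1, 2 and 0, and 0 and 1. The receptors kept 0 rising under all 3 scalings. At day 3 the counts over the 7 lists were 29 and 30 under quantile normalization, 30 and 28 under median-of-ratios scaling, and 26 and 44 after rescaling.

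The list named extracellular breakdown, of which 16 of 19 genes were tested, had 0 rising and 3 falling at day 1 and 8 rising and 5 falling at day 3. Where each of its enzymes acts was not checked, so the name may not hold for all, the Entpd genes included. Alpi, the intestinal alkaline phosphatase, was at 404 TPM in Ctrl and rose to 911 TPM in Fzd5KO at day 3 (log2 1.17 ± 0.040, limma adjusted p = 7.24e-10). Entpd5 (0.95, adjusted p = 1.15e-08 by limma), Entpd7 (1.09, 3.01e-09), Entpd2 (0.93) and Entpd8 (0.64), which are nucleoside di- or triphosphate hydrolases, and Bst1 (1.0) rose as well at day 3. At day 1 Entpd5 fell by 0.34 on the log2 scale.

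Carrier genes, of which 9 of 12 were tested, had 1 rising and 3 falling at day 1, and 4 rising and 2 falling at day 3. The nucleobase carrier Slc23a4 rose on both days, from 37.6 ± 0.714 to 60.3 ± 1.66 TPM at day 1 and from 41.7 ± 1.10 to 107 ± 2.80 TPM at day 3, by limma with adjusted p = 9.07e-07 and 1.54e-10. The urate carriers Slc2a9 (1.0) and Abcg2 (0.44) rose at day 3, as did the nucleobase carrier Slc43a3 (1.36), a gene of low level. Slc29a2, another equilibrative carrier and also of low level, fell by 0.76 on the log2 scale at day 3, by limma with adjusted p = 0.0373. Its groups overlapped, with Ctrl at 2.04, 2.26 and 3.38 TPM and Fzd5KO at 0.4, 2.44 and 0.85 TPM.

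Intracellular breakdown genes, with 13 of 19 tested, had 1 rising and 3 falling at day 1 and 5 rising and 6 falling at day 3. Gda, the guanine deaminase that feeds xanthine to Xdh, had day 1 means of 196 ± 2.91 TPM (SD, n = 3) for Ctrl and 190 ± 4.67 TPM for Fzd5KO. At day 3 it was at 84.4 ± 4.12 and 433 ± 8.52 TPM, a log2 difference of 2.35 ± 0.037 (limma, adjusted p = 8.79e-12). Samhd1 (0.83) and Nt5c2 (0.89) rose at day 3, while Nt5c (-0.44), Nt5c3b (-1.61) and Adal (-0.80) fell.

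Salvage and interconversion genes, with 16 of 20 tested, were split at 2 rising and 2 falling at day 1 and 6 rising and 7 falling at day 3. Aprt (0.49), the adenine phosphoribosyltransferase, rose, as did Adss (0.64), whereas Impdh2 (-0.98), Ahcy (-0.71) and Dck (-0.72) fell. The de novo purine synthesis list fell at day 3 in 8 of its 9 genes, with a median of -0.70, and 8 of 9 also fell at day 3 under each of the 3 other scalings. At day 1, 5 of the 9 fell, and under the 3 other scalings 0 did, while median-of-ratios scaling had 2 rising. Paics, a bifunctional enzyme of that path, had day 3 means of 18.2 TPM for Ctrl and 4.89 TPM for Fzd5KO (-1.73, limma adjusted p = 4.47e-07).

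**Figure D5:**
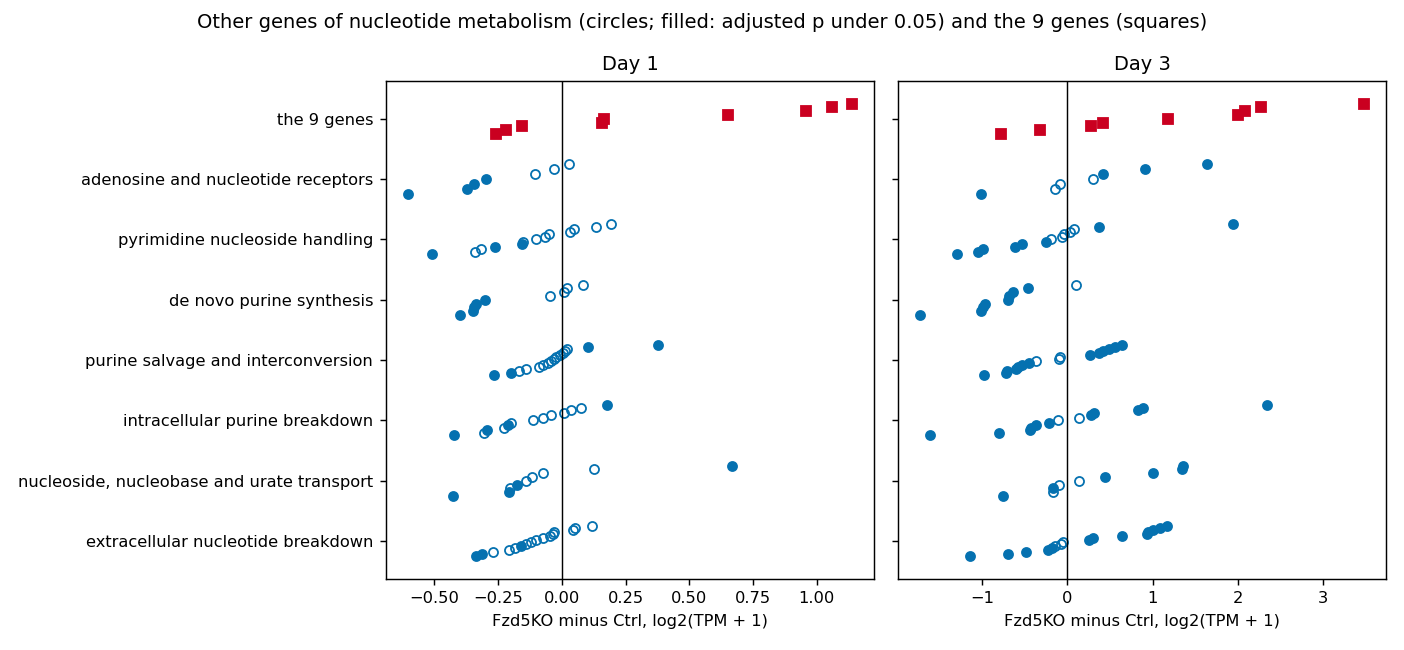
Log2 difference Fzd5KO minus Ctrl (horizontal axis) at day 1 and day 3 for the tested genes of the 7 pathway lists (circles, filled where the adjusted p was under 0.05) and for the 9 members (squares). Of the 9 de novo synthesis genes 8 are filled and below 0 at day 3, and every other list has genes on both sides of 0.

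The pyrimidine list, with 13 of 14 genes tested, had 0 rising and 3 falling at day 1 and 2 rising and 6 falling at day 3. The rising genes were Upp1, uridine phosphorylase, from 36.7 to 144 TPM at day 3 (1.94 ± 0.059, limma adjusted p = 2.96e-10), and Cda, cytidine deaminase (0.37). Dctd (-1.30), Tk1 (-1.05), Dut (-0.99) and Uck2 (-0.61) fell. Among the adenosine and nucleotide receptors, 7 of 16 were tested, with 0 rising and 4 falling at day 1 and 3 rising and 1 falling at day 3. The adenosine receptor gene Adora2b fell by 0.35 on the log2 scale at day 1 (limma, adjusted p = 0.00912) and rose by 0.91 at day 3 (adjusted p = 1.31e-06). The nucleotide receptor gene P2ry2 rose by 1.64 at day 3 and P2rx4 by 0.41, while P2ry6 fell (-1.01). Rescaled TPM, under which 10 receptors were tested, gave 3 rising and 4 falling at day 3.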

How the data were processed

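The authors deposited 1 table of TPM values, with 1 column for each of the 12 libraries. Per the labels' protocols, RNA came from an RNeasy purification and the library kit was TruSeq Stranded Total RNA. The submitters' processing notes list STAR 2.7.3a, bcl2fastq 2.18 and RSEM (no version), with the build mm10. The annotation and the use of strand were not given in the sources used here. Symbols and coordinates came from GENCODE mouse release 21 (55240 identifiers matched). TPM keeps no depth, so no counting error could be given, and the most abundant RNAs can move every other value.

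The 14510 genes reaching 1 TPM in 3 or more libraries were fitted on the log2(TPM + 1) scale by limma 3.58.1 (R 4.3.3), with 4 group means, an intensity trend and 8 residual degrees of freedom. Fold changes on that scale understate changes of low genes. Benjamini-Hochberg adjustment ran over all tested genes of a contrast, and an adjusted p under 0.05 was called. The fit was tested on simulated data. Alternatives were 2 pseudocounts (0.1 and 5), no filter or one of 5 TPM, quantile normalization, median-of-ratios scaling, TPM rescaled without the 20 most abundant genes and without mitochondrial, small RNA and predicted genes, no trend, array weights, a replicate block, only the groups compared, and leaving out each library.

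The 9 members, the pathway and marker lists were chosen with earlier results of these data known. Genes named from the pathway lists were up to 6 called genes with the smallest p and the gene with the highest mean TPM, and 1 gene that this rule names is not reported here. Genes named from marker lists were chosen among the 2 with the highest mean TPM and any called gene needed for a count, and not every list has 2 named. Cpa3 and Fcer1a were named outside that rule. The nearest profiles were the 3 genes with the smallest root mean square difference. Near copies were compared by shared 50-base stretches of the annotated transcripts.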

Additional observations from a re-analysis of the deposited data

Results flagged for a closer look

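For 5 of the 9 members, every Ctrl library of day 3 lay below every Ctrl library of day 1 while every Fzd5KO library of day 3 lay above every Fzd5KO library of day 1. The difference between the knockout effects of the days was 2.53 for Ada, 1.62 for Enpp3, 1.02 for Slc28a2, 1.02 for Xdh and 0.86 for Nt5e on the log2 scale. No p-value is given for it, because these genes were chosen with these values known.

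Of 83 tested genes of the pathway lists, 28 had a positive and 27 a negative called difference between the days, beside 44.3% of all tested genes called. The genes named from these lists were picked for a small p at day 1 or day 3, so their share is no estimate for the lists. For 38 of them the knockout effect differed between day 3 and day 1 in limma's interaction test, with Benjamini-Hochberg adjusted p from 2.93e-10 for Gda to 0.0265 for Pfas. All values that follow are log2 effects at day 3 minus those at day 1. In extracellular breakdown, the differences were Entpd2 1.07, Entpd5 1.28, Entpd7 1.17, Entpd8 0.67, Alpi 1.21 and Bst1 0.95. For transport they were Slc43a3 1.78, Slc23a4 0.68, Slc2a9 1.12 and Abcg2 0.65. For intracellular breakdown they were Gda 2.39, Adal -0.51, Nt5c -0.47, Nt5c2 0.97, Nt5c3b -1.31 and Samhd1 1.03. For salvage they were Aprt 0.48, Dck -0.58, Adss 0.65, Impdh2 -0.72 and Ahcy -0.65. For de novo synthesis they were Prps2 -0.66, Ppat -0.66, Gart -0.67, Pfas -0.36, Paics -1.33 and Atic -0.69. For pyrimidine handling they were Cda 0.32, Upp1 1.91, Tk1 -0.54, Uck2 -0.51, Dctd -1.24 and Dut -0.94. For receptors they were Adora2b 1.25, P2ry2 1.67, P2ry4 0.52, P2ry6 -0.64 and P2rx4 0.71.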

How the results depend on the processing

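Over the 22 alternatives that could be run for every contrast, the 45 member differences (9 genes in 5 contrasts) kept between 42 and 45 of their directions, and 0 member values that had been called changed sign. The count of genes called at day 1, 3622, was 1771 with quantile normalization, 2188 with median-of-ratios scaling and 1932 with rescaled TPM, and 2231 to 3675 when a library was left out, lowest without Ctrl day 1 replicate 2. The purine list genes called at day 1, 27, were 10 with quantile normalization and 13 with rescaled TPM, and 15 to 25 when a library was left out, with 15 without Ctrl day 1 replicate 2 and 17, 17 and 16 without Fzd5KO day 1 replicate 1, 2 or 3. Of 1915 values of the 42 named list genes, 121 lost and 14 gained the call. The cause was not tested. No strong shared effect of the replicate number was seen, as same-numbered deviations had correlations from -0.07 to 0.09. These values cannot show whether same-numbered libraries were matched. With a replicate block, 3414 genes were called at day 1 and 9029 at day 3, and 24 and 63 of the purine list genes. With median-of-ratios scaling, Entpd8 (0.13), Alpi (0.13), Gda (0.12), Adss (0.15) and Prpsap1 (0.12) were called higher at day 1 instead of slightly lower, and with quantile normalization Prpsap1 was called lower at day 3 (-0.12) instead of slightly higher. Depth is unknown.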
